A study of Homo sapiens with 11 samples.

Results

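Of the 11 RNA-seq libraries of the study, 6 were compared here: 5 from A375 cells released from the drug trametinib (withdrawn cells) and 1 from A375 cells that never received it (parental cells). They were chosen by their labels alone. A375 is an established human melanoma line that carries an activating mutation of the kinase BRAF, and every sample of the study comes from this line. Withdrawn cells had been selected in 2 nM trametinib for 8 weeks and were taken 4 weeks after the drug was removed, and each bears the number of a persister culture. The 5 persister libraries, from cells still in the drug, are given for their levels and enter 1 alternative fit.

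The study concerns melanoma cell plasticity, drug resistance and the Mediator complex. The comparison of withdrawn with parental cells asks what still differs from cells never exposed to the drug once it is gone. BRAF passes its signal through the MEK kinases, which trametinib inhibits, to the kinase ERK. ERK drives the cell cycle and induces its own feedback inhibitors, among them DUSP6 and the Sprouty proteins, so their mRNA is a common gauge of the pathway. Melanoma cells can also move between a pigmented, MITF-driven state and states that resemble neural crest or mesenchymal cells, and such moves are known from drug-treated cultures.

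Total counts were 63375444 in the parental library and 56765452 to 70729728 in the withdrawn libraries. Values are CPM, read counts scaled to the same effective library size. Changes are log2 fold changes of withdrawn over parental cells ± SE, with adjusted p from edgeR's quasi-likelihood test (Benjamini-Hochberg over the 21590 genes tested, threshold 0.05). Because there is 1 parental library, the error came from the spread of the 5 withdrawn libraries, and the parental culture was assumed to vary as little as they do. The labels do not say whether the withdrawn cultures went through selection apart from each other, so the spread behind the p-values may be technical. In bulk RNA, a change in the share of a cell type and a change in RNA per cell cannot be told apart. Differences between the parental stock and the cells that went into selection cannot be told apart from the effect of drug and withdrawal.

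SOX10 and S100B, which mark the melanocytic and neural crest lineage, stood at 651 and 73.4 CPM in parental cells and averaged 825 and 96.4 CPM in withdrawn cells. The pigment-cell markers PMEL, MLANA, TYR and TYRP1 stayed below 2 CPM in all 6 libraries. DCT stood at 3.01 CPM in parental and 16.7 to 64.7 CPM in withdrawn cells without passing the test, although DESeq2 called it. Of the leukocyte markers, CD3D had 0 counts in all 6 libraries. Summed CPM of the 8 leukocyte markers was 7.67 in parental and 3.96 to 5.40 in withdrawn cells, and that of the 6 endothelial markers 18.6 and 16.8 to 27.7. The 6 keratinocyte markers summed to 41.3 and 35.8 to 39.6 CPM, and the 9 fibroblast markers to 20.2 and 38.8 to 52.2 CPM.

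Withdrawn cells lay nearer to the parental library than to any persister library, and each lay further from the parental library than from the other withdrawn libraries. Across 9853 genes with a mean of at least 10 CPM, the median absolute log2 difference was 0.225 to 0.237 between the parental and a withdrawn library. It was 0.057 to 0.094 between withdrawn libraries, 0.349 to 0.532 between a withdrawn and a persister library and 0.396 to 0.607 between the parental and a persister library. On a squared scale, the median difference between withdrawn libraries was 5.99 to 14.1 times that of sampling noise. Between the parental and a withdrawn library it was 75.5 to 93.0 times.

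In the fit of the 6 libraries, 6593 of 21590 genes passed the threshold (30.5%), 3483 of them higher in withdrawn cells (16.1%) and 3110 lower (14.4%). Most of these differences were small: 77.7% of them were under 2-fold and the median size was 0.51 on the log2 scale. At least 2-fold, 1044 genes were higher (4.84%) and 426 lower (1.97%). In all, 506 changed at least 4-fold (2.34%), 398 higher (1.84%) and 108 lower. Of the 398 genes that rose at least 4-fold, 356 had less than 1 CPM in parental cells, as did 7362 of all 21590 genes tested. Of the 108 that fell at least 4-fold, 103 averaged less than 1 CPM in withdrawn cells. The parental value lay outside the range of the 5 withdrawn values for 14652 genes (67.9%), a group that includes all 6593. Any 1 of 6 libraries is the highest or lowest for many genes by chance, and that part was not measured.

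With the 5 persister libraries added to the fit, 102 of 23693 genes passed (0.431%), 74 higher (0.312%) and 28 lower (0.118%). All 102 also passed in the fit of 6 libraries. Persister libraries differed from each other by 0.160 to 0.379, more than the withdrawn ones did, and this spread enters that fit's error. A wider spread of the parental culture than of the withdrawn cultures cannot be measured with 1 library, so the count of changed genes depends on which libraries supply the error. Genes that passed in both fits are named as such below. Gene lists had at most 2 members each that passed in the fit of 11 libraries. The lysosome, antigen presentation, interferon, S phase, ribosomal protein, oxidative phosphorylation and chromatin regulator lists had none. Counts of list members below are from the fit of 6. They are to be read against the 16.1% of all tested genes that were higher and the 14.4% that were lower (19.4% and 18.8% of protein-coding genes), and list medians against the median of 0.025 over all genes.

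**Figure D1:**
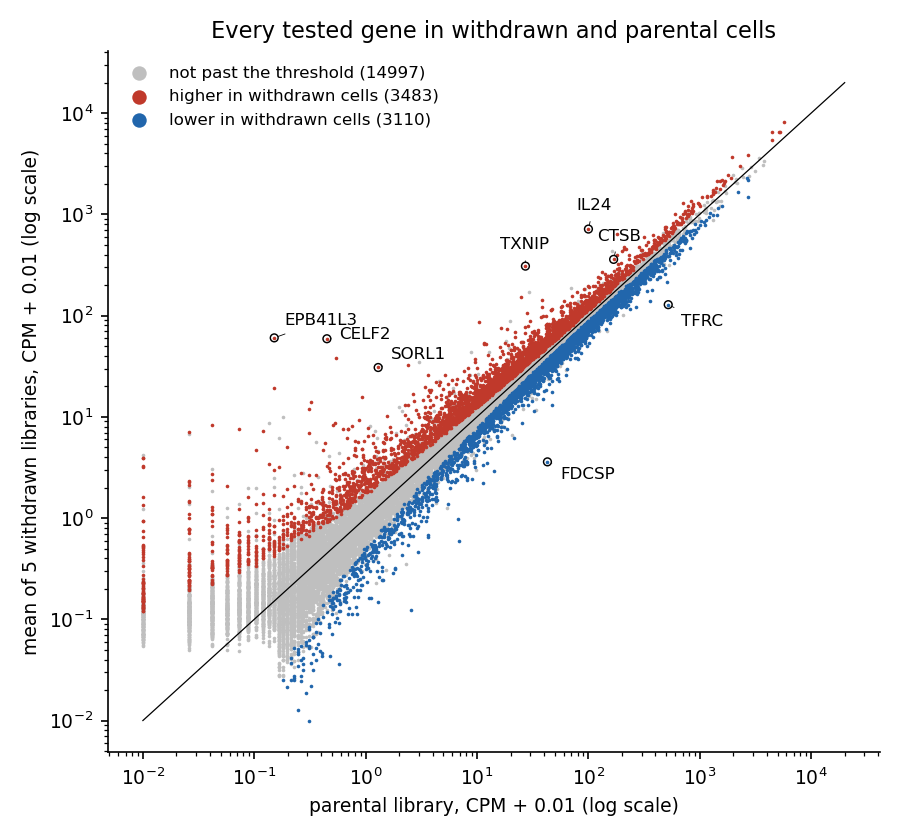
Each point is 1 tested gene, with its CPM in the parental library on the x axis and its mean over the 5 withdrawn libraries on the y axis, both log scales with 0.01 added; red and blue points passed the threshold (3483 higher, 3110 lower) and the line marks equality. Most genes lie along the line, and the farthest points above it had under 1 CPM in parental cells.

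The 12 largest rises among protein-coding genes were in genes that the parental library hardly held. Ranking by fold change favours such genes, which could pass the filter on mean CPM through the withdrawn libraries alone. EPB41L3, a band 4.1-like protein that links membrane proteins to the cytoskeleton, stood at 0.141 CPM in parental cells and at 61.1, 45.5, 63.1, 79.1 and 52.3 CPM in withdrawn replicates 1 to 5 (log2 fold change 8.72 ± 0.73, adjusted p = 0.00134, and 0.0023 in the fit of 11 libraries). Every withdrawn library lay far above the parental value, and persister libraries, at 34.2 to 93.4 CPM, spanned a range that holds all 5. CELF2, an RNA-binding regulator of splicing, stood at 0.439 CPM against 62.8, 50.4, 49.6, 72.5 and 60.01 (log2 fold change 7.07 ± 0.44). Here withdrawn cells stood above persister cells, which held 4.71 to 19.9 CPM. FBXL7, a substrate receptor of an SCF ubiquitin ligase, stood at 0.533 CPM against 39.4, 42.2, 30.5, 37.3 and 39.1 (log2 fold change 6.14 ± 0.27), and SEMA5A, a semaphorin, at 0.141 CPM against 23.8, 9.10, 18.8, 27.3 and 17.95. Persister cells held more SEMA5A, 91.4 to 329 CPM. All 4 passed in both fits.

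The other 8 were POTEC, CTTNBP2, PLCXD3, PLXDC2, MAP2, LRRTM4, CA8 and DNAH6. PLXDC2 passed in both fits, with adjusted p = 0.0362 in the fit of 6 and 0.0352 in that of 11. It missed the threshold without withdrawn replicate 1, 4 or 5 (adjusted p = 0.0691, 0.084 and 0.058), and CA8 did without replicate 1, 2 or 3 (0.0573, 0.0528 and 0.0697). In limma-voom 9 of the 12 missed it (adjusted p = 0.0794 to 0.394), with POTEC, CELF2 and FBXL7 past it. DNAH6, an axonemal dynein heavy chain, had 0.314 CPM in parental, 8.44 to 16.8 in withdrawn and 0.216 to 2.34 in persister cells. MAP2, a microtubule-associated protein of neurons, had 2 counts in parental cells, a ratio of 88.0 (95% counting interval 24.3 to 728). PLXDC2, a plexin-domain membrane protein, also had 2 counts, a ratio of 266 (73.7 to 2200.5), and PLCXD3 had 1, a ratio of 463 (83.1 to 18302). Intervals and floors take in the counting error alone. POTEC, of the POTE family whose near-identical copies share reads, and CTTNBP2, a cortactin-binding protein, had 0 counts in parental cells. Set against a floor of 3 counts in the parental library, the pooled withdrawn counts were at least 83.4-fold and 68.7-fold higher. PRLR, the prolactin receptor, and SERTM2 also had 0 parental counts and were at least 28.6-fold and 20.02-fold higher. TRPC4, a cation channel, had 0 parental counts and 6.83, 0.0534, 10.5, 2.47 and 0.872 CPM in withdrawn replicates 1 to 5, and this spread left it short of the threshold (adjusted p = 0.298), although DESeq2 called it (0.00317). Persister cells held 54.4 to 233 CPM of it.

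The 12 largest falls were in FDCSP, BEND4, TFRC, KRT14, ARMCX4, MGAM2, ZFP42, NOTCH3, EML5, EPHB1, P2RY1 and COL6A3. FDCSP, a small secreted protein, stood at 42.9 CPM in parental cells and 1.73, 1.98, 6.63, 4.14 and 3.43 in withdrawn cells (log2 fold change -3.58 ± 0.63, adjusted p = 0.0168). Persister cells were lower still, with at most 0.0155 CPM. TFRC, the transferrin receptor that takes up iron, was the most abundant of the 12: it stood at 521 CPM in parental cells and 126, 126, 130.1, 148 and 110.4 in withdrawn cells (log2 fold change -2.02 ± 0.11, adjusted p = 2.3e-05). Persister cells held 339 to 579 CPM, a range that includes the parental value and lies above every withdrawn value. TFRC and FDCSP passed in both fits. ZFP42, a zinc finger factor of pluripotent cells, stood at 21.4 CPM in parental and 5.43 to 6.76 in withdrawn cells, and the receptor NOTCH3 at 8.20 and 2.00 to 3.24 CPM. MGAM2 stood at 46.7 CPM in parental, 11.4 to 16.8 in withdrawn and 0.187 to 1.64 in persister cells. Persister values of BEND4 and EPHB1 were spread widely, at 0.250 to 10.8 and 2.09 to 10.1 CPM. Of EML5's exon bases, 50.1% lie opposite another gene, and KRT14 has close copies, so their counts are uncertain. ARMCX4 missed the threshold without withdrawn replicate 1 or 3 (adjusted p = 0.0666 and 0.0522). Some protein-coding genes outside chromosome Y had 0 counts in all withdrawn libraries. Their highest parental counts were only 5 to 7 (NXPH2, C11orf86, ELOA3C, ECEL1 and SCUBE1), and these genes were not tested.

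**Figure D2:**
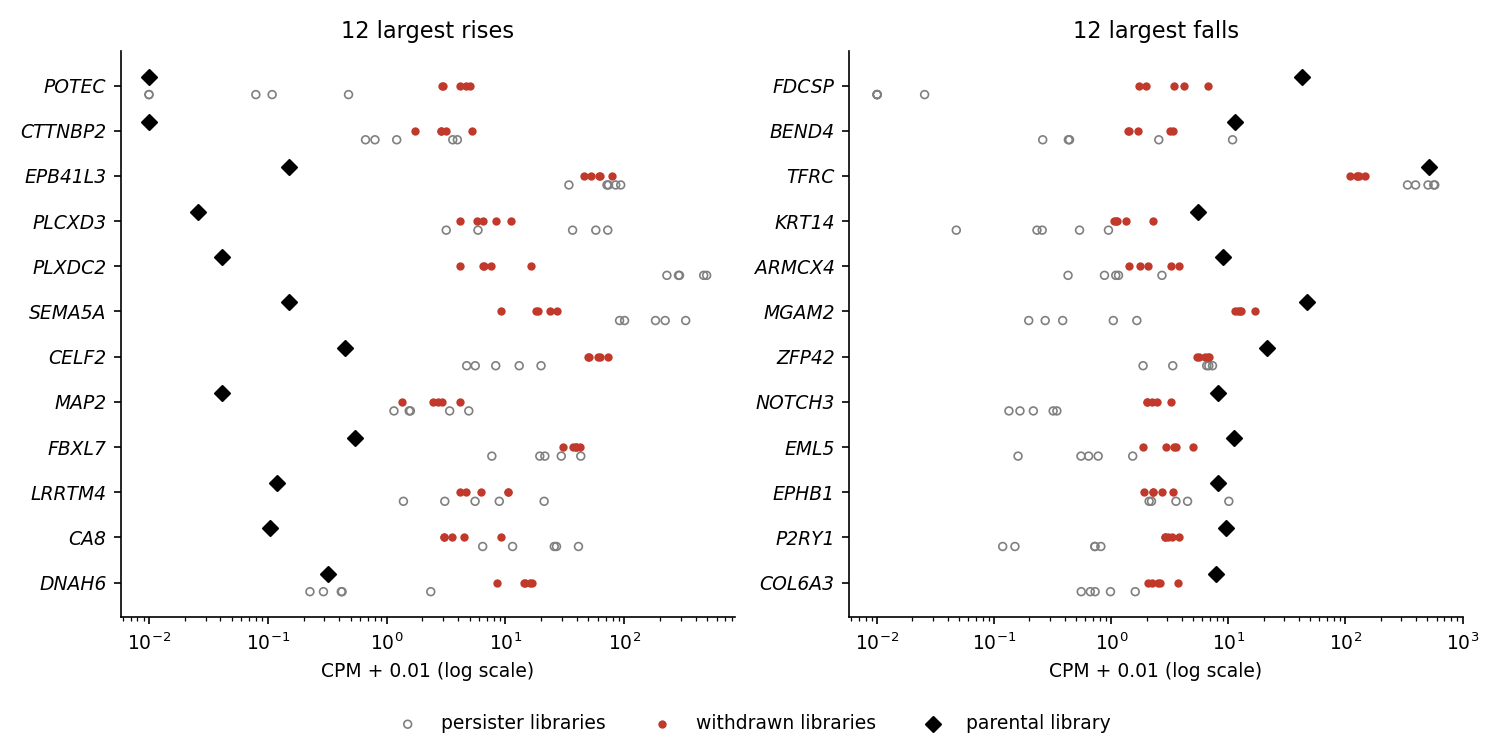
CPM with 0.01 added (log scale) of the 12 largest rises and the 12 largest falls, with 1 diamond for the parental library, filled points for the 5 withdrawn libraries and open circles for the 5 persister libraries. The genes were chosen to have the diamond outside the range of the filled points. The open circles lie on either side of the filled points (SEMA5A above, CELF2 below, TFRC near the diamond).

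Among the 102 genes that passed in both fits, 64 reached 10 CPM in 1 of the groups, 46 higher and 18 lower in withdrawn cells. The following were singled out from them after their values were seen. TXNIP, which binds thioredoxin and restrains glucose uptake, stood at 27.2 CPM in parental cells and at 266, 258, 347, 293 and 376 in withdrawn cells (log2 fold change 3.50 ± 0.32, adjusted p = 0.00145, and 0.0107 in the fit of 11 libraries). All withdrawn values lay above those of persister cells, at 99.8 to 210.3 CPM, and these above the parental value. SORL1, a sorting receptor of the endosome, stood at 1.29 CPM against 22.1, 29.6, 32.4, 32.04 and 37.3 (log2 fold change 4.58 ± 0.41). NAV3, a microtubule-binding protein, stood at 0.298 CPM against 7.80 to 18.1, and RARB, a retinoic acid receptor, at 2.24 against 12.1 to 14.6. The surface proteins CD59, which blocks the complement membrane attack complex, and PROCR, the protein C receptor, rose 2.09-fold and 2.67-fold, from 217 to 425–506 CPM and from 19.1 to 49.2–53.7 CPM. Persister cells held 444 to 626 CPM of CD59 and 83.7 to 104 of PROCR. RRAS, a RAS-related GTPase, rose 3.05-fold from 7.40 CPM, and the adaptor GAB2 rose 2.29-fold from 20.1 CPM. MR1, which presents metabolites to T cells, rose 3.93-fold and the ATP-gated channel P2RX7 5.84-fold.

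Genes that fell in both fits included several with narrow withdrawn ranges. TRA2A, a splicing regulator, stood at 78.5 CPM in parental and 35.7, 39.3, 37.4, 38.4 and 38.9 in withdrawn cells (log2 fold change -1.05 ± 0.07, adjusted p = 3.11e-06, and 0.00237 in the fit of 11 libraries), while persister cells held 72.3 to 83.1 CPM. DGCR8, the partner of DROSHA in microRNA processing, stood at 30.98 CPM against 13.5 to 14.9, with 24.2 to 33.2 in persister cells. FAM13B fell 2.69-fold to 16.03–18.7 CPM, from 46.9 in parental cells, with 53.7 to 76.3 in persister cells. MAT2A, which makes S-adenosylmethionine, fell 1.80-fold to 239–248 CPM, and SLC38A1, a glutamine carrier, fell 2.21-fold to 115–130.2 CPM. CEMIP2, a cell-surface protein, stood at 507 CPM in parental, 201 to 238 in withdrawn and 105 to 184 in persister cells. In TRA2A, DGCR8, FAM13B, MAT2A and SLC38A1 the withdrawn range lay below every persister value. In CEMIP2 it lay between the persister and the parental values. On GRCh38, TXNIP lies at 145992435 to 145996600 of chromosome 1, TFRC at 196027183 to 196082189 of chromosome 3 and EPB41L3 at 5392381 to 5630700 of chromosome 18.

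Of the feedback inhibitors of ERK signalling, DUSP6, SPRY2 and SPRY4 did not pass the test, while SPRY1 rose. DUSP6, an ERK phosphatase, stood at 172 CPM in parental cells and 179, 202, 181, 195 and 188 in withdrawn cells (log2 fold change 0.14 ± 0.07, adjusted p = 0.175), with 21.5 to 33.6 CPM in persister cells. Of its exon bases, 39.4% lie opposite another gene, whose reads could not be told apart if counting ignored strand. SPRY2 stood at 283 CPM against 261 to 309.8 (adjusted p = 0.921), SPRY4 at 456 against 379 to 538 (adjusted p = 0.94), and the ETS factor ETV5 at 144 against 136 to 149.9 (adjusted p = 0.788). The parental values of SPRY2, SPRY4 and ETV5 lay inside the withdrawn range. Of 32 genes listed as pathway output, 4 rose, 3 fell and 25 did not pass, with a median log2 fold change of -0.03 against 0.025 over all genes tested. Those that moved included CCND1, which encodes cyclin D1 and fell from 409.7 to 250.3, 314, 295, 246 and 271 CPM (log2 fold change -0.57 ± 0.12, adjusted p = 0.0104). Without withdrawn replicate 1, 1 of the 32 fell. SPRY1 rose 1.69-fold and PHLDA1 1.40-fold.

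Of the 20 genes of the RAS, RAF, MEK and ERK core, 2 rose and 7 fell (median -0.14). RASA1, a RAS GTPase-activating protein, fell from 57.2 to 40.5–47.4 CPM. The kinase MAPK3, which is ERK1, rose 1.31-fold, and MAP2K1, one of the MEK kinases, fell 1.14-fold (adjusted p = 0.0455, but 0.078, 0.0666 and 0.0752 without withdrawn replicate 1, 4 or 5). Without replicate 1, 4 of the core genes fell. BRAF stood at 55.1 CPM in parental and 58.5 to 61.1 in withdrawn cells (adjusted p = 0.186). EGFR fell from 14.2 to 8.42, 5.97, 10.1, 5.75 and 6.47 CPM (adjusted p = 0.0446), though not without withdrawn replicate 1, 2 or 5 (0.0526, 0.0728 and 0.0798). AXL stood at 215 CPM against 171, 174, 244, 146 and 182 and did not pass (adjusted p = 0.586). Without withdrawn replicate 3, the only one above the parental value, AXL passed as lower (adjusted p = 0.0343). The receptor FGFR1 fell 1.55-fold, and TYRO3, of the AXL family, rose 1.43-fold. MYC stood at 22.8 CPM in parental and 18.4 to 21.1 in withdrawn cells (adjusted p = 0.137).

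Mediator, which bridges transcription factors and RNA polymerase II, had 3 of 33 subunits higher and 5 lower, with 25 not past the threshold (median -0.04). The share that rose (9.09%) was below the 16.1% of all genes, and the share that fell (15.2%) was near their 14.4%. MED22 fell from 33.7 to 19.8, 20.9, 20.3, 18.6 and 19.03 CPM (log2 fold change -0.78 ± 0.08), and MED1, which contacts nuclear receptors, fell from 172 to 119–125 CPM. Of the kinase module, MED13 fell from 168 to 122–133 CPM (log2 fold change -0.39 ± 0.06). The module's kinases CDK8, at 34.99 against 28.7 to 33.4 CPM, and CDK19, at 30.9 against 31.3 to 36.3 CPM, did not pass, nor did CCNC and MED12 (adjusted p = 0.283, 0.407, 0.807 and 0.117).

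The lineage factor SOX10 and 7 of 19 pigmentation genes rose in withdrawn cells. SOX10 rose 1.27-fold from 651 to 815, 852, 798, 810.3 and 849 CPM (adjusted p = 0.00185), with 29.7 to 88.0 CPM in persister cells. MITF, the master regulator of melanocytes, stood at 80.3 CPM in parental and 155, 112, 127, 173 and 135 in withdrawn cells. Its parental value lay below all 5, but it did not pass (log2 fold change 0.80 ± 0.27, adjusted p = 0.087). It passed without withdrawn replicate 2 or 4 (adjusted p = 0.0372 and 0.0433) and in DESeq2 (0.0135). Of 19 pigmentation genes tested, 7 rose and 2 fell (median 0.63). The risers were GPNMB, a melanosome and lysosome glycoprotein, from 210.5 to 499.8, 422, 423, 620.4 and 409 CPM, with BCL2A1, PMEL, RAB27A, RAB38, TFAP2A and PAX3. The members past the threshold as lower were OCA2, a melanosome channel, from 2.10 to 0.548–1.35 CPM, and MYO5A, a myosin that carries melanosomes, from 145 to 116–138 CPM (adjusted p = 0.0361 and 0.0458). OCA2 missed it without withdrawn replicate 1 or 5 (0.0729 and 0.0533) and MYO5A without replicate 1, 2, 3 or 5 (adjusted p = 0.0579 to 0.0885). BCL2A1, an anti-apoptotic BCL2 relative, rose from 2.26 to 8.31–16.4 CPM. GPNMB missed the threshold without withdrawn replicate 1, 2 or 3 (adjusted p = 0.0741, 0.065 and 0.0576) and BCL2A1 without replicate 1 (0.054). Of 24 neural crest genes, 6 rose (25%, against 16.1% of all genes) and 2 fell (8.33%, against 14.4%), with a median of 0.12. GFRA1, a receptor for glial cell line-derived neurotrophic factor, rose from 0.188 to 5.33, 6.43, 4.20, 5.18 and 4.10 CPM and passed in both fits (adjusted p = 1.11e-05 and 0.0155). NGFR, at 43.7 against 24.8, 21.3, 32.8, 21.7 and 17.4 CPM, did not pass (adjusted p = 0.109). Without withdrawn replicate 3, NGFR passed as lower (adjusted p = 0.00284). Of 28 genes of the undifferentiated, AXL-high state, 6 rose and 2 fell (median 0.00), or 1 without withdrawn replicate 1 or 5. MME, a membrane peptidase, was hardly present in parental cells (0.172 CPM) and reached 13.3, 1.21, 24.2, 6.73 and 4.89 CPM in withdrawn cells. Its 5 values spread widely and it did not pass (adjusted p = 0.205), although DESeq2 called it (0.000784). Persister cells held 767 to 3275 CPM.

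Most lysosomal genes rose in withdrawn cells. Lysosomes break down proteins and lipids with acid hydrolases, and many of their genes share a promoter element bound by TFEB and TFE3. Of 40 lysosomal genes tested, 26 rose and 0 fell, against 16.1% and 14.4% of all genes, and their median log2 fold change was 0.52. Without withdrawn replicate 2, 1 fell. The median in each withdrawn library over the parental one, on the log2(CPM + 0.5) scale, was 0.45 to 0.55. The protease CTSB rose from 168 to 373, 340.5, 358, 383 and 341 CPM (log2 fold change 1.09 ± 0.08, adjusted p = 5.94e-06), and no withdrawn value came near the parental one. CTSF stood at 35.5 against 63.4 to 74.2 CPM, CTSL at 127 against 217 to 263, and GRN, the precursor of granulins, at 84.99 against 137 to 142. PSAP, which gives rise to the saposins, rose from 597 to 968–1097 CPM, and the membrane protein LAMP2 from 145 to 223–269. The largest rises were in CTSS, from 1.16 to 5.68–8.09 CPM, and CTSK, from 27.8 to 76.9–140.5 CPM. CTSK missed the threshold without withdrawn replicate 1 or 3 (adjusted p = 0.0511 and 0.0515). Persister cells held 227 to 1144 CPM of CTSK and 344 to 552 of CTSB.

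The promoter window of CTSA (cathepsin A, 99.9 CPM in parental and 135 to 153 in withdrawn cells) is shown because it is one of 2 rising members that hold the palindrome TCACGTGA, the core of that element, in capitals. Of its exon bases, 29.6% lie opposite another gene. The window is the plus strand of chr20:45891085-45891384 on GRCh38.p14, from 250 bases before to 50 after the RefSeq start.
CTSA: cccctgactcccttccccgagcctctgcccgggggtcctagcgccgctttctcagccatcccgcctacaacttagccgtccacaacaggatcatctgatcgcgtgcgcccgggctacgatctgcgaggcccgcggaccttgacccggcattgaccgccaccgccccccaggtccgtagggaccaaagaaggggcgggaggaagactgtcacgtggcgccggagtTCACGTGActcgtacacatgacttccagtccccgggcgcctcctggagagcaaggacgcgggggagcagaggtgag
Of 26 tested lysosomal genes with such a window, 5 held TCACGTGA, and of the 16 that rose, 2 (CTSA and GAA). Among 27305 RefSeq windows 1.04% held it, and among those of the tested protein-coding genes 1.8%. Windows were the first listed for each gene. A match describes the letters only, and it is not a binding site shown by these data.

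Most antigen presentation genes and 21 of 44 interferon-stimulated genes rose. MHC class I molecules show peptides from inside the cell to T cells, and interferon raises both them and the immunoproteasome. Of 31 antigen presentation genes, 24 rose and 1 fell (median 0.55, and 0.47 to 0.53 in single withdrawn libraries). HLA-B rose from 141 to 244, 251, 255, 271 and 258 CPM (log2 fold change 0.86 ± 0.07, adjusted p = 1.05e-05), and HLA-E from 85.4 to 145–156. Their light chain B2M rose from 484 to 666–744 CPM and the immunoproteasome subunit PSMB9 from 7.16 to 13.7–15.4. Of the class II pathway, HLA-DRA rose from 549 to 678–768 CPM and the invariant chain CD74 from 1437 to 1962–2289 CPM. Persister cells held 212 to 429 CPM of HLA-B, above the parental value, and 43.3 to 227 of HLA-DRA, below it. TAP2, part of the peptide transporter, was the member that fell, from 21.3 to 15.7–18.5 CPM. The exons of HLA-B lie opposite another gene over 23.5% of their bases, and HLA genes are so alike that the authors' counting may have split reads between them.

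Of 44 interferon-stimulated genes, 21 rose and 3 fell (median 0.55). IFI6 rose from 10.96 to 23.3, 21.5, 24.7, 23.5 and 21.7 CPM (log2 fold change 1.07 ± 0.10, adjusted p = 2.85e-05), IFITM2 from 21.3 to 44.1–50.8 CPM, and IFI16, a sensor of DNA, from 282 to 445–502 CPM. IFITM2 shares reads with its close copy IFITM3. The members that fell were SAMD9, from 64.5 to 40.2–45.6 CPM, EIF2AK2, which encodes the double-stranded RNA kinase PKR, from 162 to 136–149, and IFIT5, from 57.03 to 46.3–51.5. IFIT5 missed the threshold without withdrawn replicate 1 or 5 (adjusted p = 0.0732 and 0.0588), so that SAMD9 alone fell there. EIF2AK2 missed the threshold without withdrawn replicate 1, 3 or 5 (adjusted p = 0.0535, 0.0609 and 0.0718). The promoter windows of IFI6 and EIF2AK2 are shown because the genes moved in opposite directions while both hold GAAANNGAA, the core of interferon response elements, on 1 of the strands (capitals). IFI6 is the minus strand of chr1:27672143-27672442 with 3 matches and EIF2AK2 the minus strand of chr2:37156931-37157230 with 1, both on GRCh38.p14 from RefSeq.
IFI6: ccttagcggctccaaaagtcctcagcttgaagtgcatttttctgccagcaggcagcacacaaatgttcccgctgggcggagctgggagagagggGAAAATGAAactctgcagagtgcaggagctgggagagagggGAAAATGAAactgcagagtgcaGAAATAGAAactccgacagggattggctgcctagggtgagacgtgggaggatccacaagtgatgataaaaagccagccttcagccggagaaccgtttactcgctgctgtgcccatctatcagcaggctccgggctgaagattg
EIF2AK2: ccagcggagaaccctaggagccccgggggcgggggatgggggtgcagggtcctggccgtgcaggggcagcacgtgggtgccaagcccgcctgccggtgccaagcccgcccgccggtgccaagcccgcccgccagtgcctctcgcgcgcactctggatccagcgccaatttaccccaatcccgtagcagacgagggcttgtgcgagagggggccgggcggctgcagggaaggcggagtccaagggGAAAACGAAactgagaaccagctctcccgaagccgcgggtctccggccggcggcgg
The motif was present in 23 of 33 tested interferon-stimulated genes with a window, in 11 of the 17 that rose and in all 3 that fell. It was present in 13 of 26 antigen presentation genes, in 8.29% of all windows and in 6.58% of those of tested protein-coding genes. Interferon-stimulated genes are listed for their response to interferon, so this share describes the list.

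Among 25 cytokine and NF-kB genes, 7 rose (28%, against 16.1% of all genes) and 2 fell (8%, against 14.4%), with a median of 0.35. IL24, a cytokine first found in differentiating melanoma cells, rose 7.15-fold from 100.1 to 697, 695, 772, 724 and 690.4 CPM (log2 fold change 2.84 ± 0.09, adjusted p = 1.06e-08). Its withdrawn values lay above all persister values, which were 25.5, 68.4, 47.6, 114 and 173 CPM, and it did not pass in the fit of 11 libraries (adjusted p = 0.162). ICAM1, an adhesion molecule, rose from 48.4 to 65.8–71.7 CPM, NFKB2 from 39.7 to 47.5–56.9, and CXCL8, which is interleukin 8, from 8.04 to 13.3–19.2. IL11 fell from 6.21 to 2.03–3.53 CPM.

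Several chaperones fell, while the small heat shock proteins HSPB1 and HSPB8 rose. Heat shock factor HSF1 binds repeats of NGAAN in the promoters of chaperone genes. Of 32 genes of the unfolded protein and heat shock responses, 5 rose and 13 fell (median -0.13). HSPA8, the constitutive HSP70, fell from 2723 to 1451, 1654, 1489.6, 1515 and 1374 CPM (log2 fold change -0.86 ± 0.08, adjusted p = 2.19e-05). Its co-chaperones HSPH1 and DNAJA1 fell from 593 to 312–359 CPM and from 380.5 to 239–263 CPM. The inducible HSPA1A fell from 131 to 83.03–93.02 CPM and its near-identical copy HSPA1B from 24.7 to 13.2–15.2, with reads that the counting may have split. HSPB8 rose from 3.79 to 17.01, 14.8, 18.3, 21.3 and 15.6 CPM and passed in both fits (adjusted p = 7.63e-05 and 0.0208), and HSPB1 rose from 76.2 to 115–145 CPM. HSPB8 was higher still in persister cells, at 67.5 to 124 CPM. The windows of HSPA8, which fell, and HSPB8, which rose, both hold GAANNTTC, a pair of facing heat shock units (capitals, 2 matches in each). They are the minus strand of chr11:123062087-123062386 and the plus strand of chr12:119178681-119178980 on GRCh38.p14, from RefSeq.
HSPA8: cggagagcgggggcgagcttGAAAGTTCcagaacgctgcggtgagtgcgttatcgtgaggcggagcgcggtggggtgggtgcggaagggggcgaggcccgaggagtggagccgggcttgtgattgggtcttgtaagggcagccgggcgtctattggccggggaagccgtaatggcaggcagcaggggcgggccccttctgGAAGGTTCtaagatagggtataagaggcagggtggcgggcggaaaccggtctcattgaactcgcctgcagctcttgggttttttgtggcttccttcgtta
HSPB8: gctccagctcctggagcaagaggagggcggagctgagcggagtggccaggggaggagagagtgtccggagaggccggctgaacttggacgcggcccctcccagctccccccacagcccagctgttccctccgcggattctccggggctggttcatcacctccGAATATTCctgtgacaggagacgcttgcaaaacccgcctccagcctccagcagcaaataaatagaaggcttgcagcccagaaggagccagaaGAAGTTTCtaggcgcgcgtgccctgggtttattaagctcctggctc
Of the 32 tested members, 6 held the motif, which reads the same on both strands: DNAJA1, HSPA1A, HSPA1B and HSPA8, which fell, and HSPB1 and HSPB8, which rose. It was found in 6.87% of all windows and in 4.89% of those of tested protein-coding genes.

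Iron, amino acid and redox genes moved in both directions. Beside TFRC, the iron store FTL (ferritin light chain) rose from 496 to 629–708 CPM. SLC7A11, the cystine importer, fell from 102 to 55.2, 47.1, 49.2, 65.95 and 52.2 CPM (log2 fold change -0.92 ± 0.16), and GCLM, a subunit of the enzyme that starts glutathione synthesis, fell from 44.9 to 27.4–33.95 CPM. GPX4, which reduces lipid peroxides, rose from 70.02 to 91.2–108 CPM. The reductases AKR1C1, AKR1C2 and AKR1C3 rose 4.95-fold, 4.62-fold and 3.67-fold, but they are near-identical copies that share reads. AKR1C2 missed the threshold without withdrawn replicate 1, 3, 4 or 5 (adjusted p = 0.0907, 0.0804, 0.0674 and 0.074). In all, 10 of 28 genes of glutathione, NRF2 and ferroptosis rose and 4 fell. Of 26 genes of ATF4 and amino acid stress, 9 rose and 6 fell. The large neutral amino acid carrier SLC7A5 fell from 374 to 186, 161, 232, 161 and 166 CPM, the arginine carrier SLC7A1 from 202 to 135–152, and the serine synthesis enzyme PSAT1 from 213 to 154–162. The rises were in less abundant genes: CTH, which makes cysteine, rose from 7.54 to 13.3–13.97 CPM and DDIT3, a transcription factor of the stress response, from 4.34 to 6.45–8.58. Of 31 genes of cholesterol and fatty acid synthesis, 7 rose and 10 fell: FASN fell from 736 to 480.5–547 CPM, the regulator SREBF1 from 171 to 113–123 CPM and HMGCS1 from 46.1 to 30.98–34.7.

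Most S phase genes fell in withdrawn cells, and mitosis genes moved both ways. Of 40 S phase genes, 0 rose and 24 fell (median -0.28, and -0.34 to -0.24 in single withdrawn libraries). Without withdrawn replicate 2 or 4, 1 rose. UHRF1, which keeps DNA methylation through replication, fell from 145 to 67.9, 80.3, 73.9, 70.97 and 75.4 CPM (log2 fold change -0.98 ± 0.07, adjusted p = 7.49e-06). RRM2, a subunit of ribonucleotide reductase, fell from 228 to 124, 136, 129.8, 123 and 125 CPM, and MCM10, which starts replication forks, from 81.1 to 41.4–46.6 CPM. PCNA, the sliding clamp, fell from 244 to 172–197 CPM and the polymerase POLE from 107 to 67.1–76.7. Of 36 mitosis genes, 5 rose and 10 fell. The proliferation marker MKI67 fell from 886 to 607, 562, 667, 691 and 669 CPM (log2 fold change -0.47 ± 0.10, adjusted p = 0.00445) and the separase ESPL1 from 91.2 to 63.2–71.4. The securin PTTG1 rose from 116 to 182–204 CPM, CDC25C from 19.6 to 26.4–29.8 and cyclin B2 (CCNB2) from 111 to 125–139. Of 29 p53 targets and cell cycle inhibitors, 9 rose and 4 fell: CCNG1 rose from 189 to 284–303 CPM, and MDM2, the ubiquitin ligase of p53, fell from 139 to 91.4–105. CDKN1A, the inhibitor p21, stood at 62.1 CPM in parental and 80.8, 63.5, 88.1, 80.6 and 77.6 in withdrawn cells and did not pass (adjusted p = 0.162), but it passed as higher without withdrawn replicate 2 (0.00188). Persister cells held 435 to 645 CPM. CDKN1C fell from 7.32 to 1.97–3.24 CPM and CDKN2A rose from 1.05 to 2.66–3.83. Replication-dependent histones, whose mRNA lacks a poly(A) tail, are captured poorly in such libraries: 2 of 19 fell, or 1 without withdrawn replicate 1, 2, 4 or 5.

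**Figure D3:**
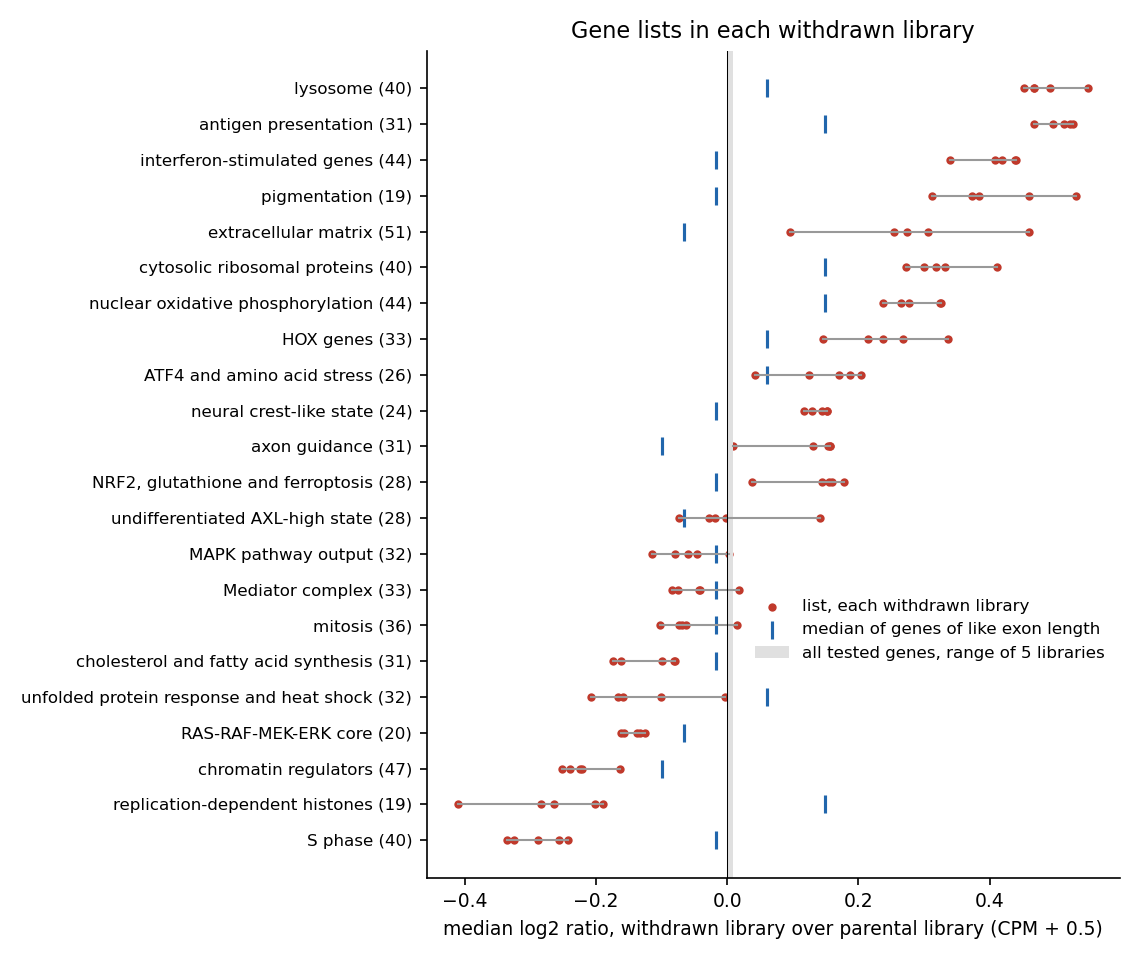
For each gene list (number of tested members in brackets), the points are the medians over members of the log2 ratio of CPM + 0.5 in 1 withdrawn library over the parental library; the grey band is the range of that median over all tested genes in the 5 libraries, and blue bars are medians of fitted log2 fold changes of protein-coding genes of like exon length. Lysosome genes lie to the right, at 0.45 to 0.55, as do antigen presentation genes, at 0.47 to 0.53, and S phase genes lie to the left, at -0.34 to -0.24.

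Ribosomal protein genes and nuclear genes of the respiratory chain were slightly higher, and many chromatin regulators lower. Of 40 ribosomal protein genes, 36 rose and 0 fell (median 0.34), for example RPS27 from 579 to 786–861 CPM and RPL13 from 734 to 977–1081 CPM. They have many near-identical pseudogenes that may share their reads. Of 44 nuclear genes of oxidative phosphorylation, 31 rose and 0 fell (median 0.27). The complex III genes UQCRC2, UQCRB and UQCRC1 rose from 128 to 194–209, from 125 to 175–188 and from 122 to 163–177 CPM. Of 13 genes of the mitochondrial genome, 6 rose, MT-CO1 among them from 5702 to 7268–8731 CPM, and 2 fell, MT-ND2 among them from 1472 to 1067–1181. Together the mitochondrial genes held 2.96% of the parental counts and 3.15% to 3.70% of the withdrawn.

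Of 47 chromatin regulators, 3 rose and 24 fell (median -0.24). Without withdrawn replicate 1 or 5, 1 rose. PBRM1, a subunit of the PBAF remodelling complex, fell from 146 to 87.6, 94.7, 87.3, 89.2 and 92.03 CPM (log2 fold change -0.69 ± 0.06, adjusted p = 1.59e-05). The histone methyltransferases KMT2D and KMT2A fell from 179 to 99.8–122 CPM and from 204 to 121–143 CPM, SETD1A from 72.9 to 46.9–51.4 and EZH2, of the Polycomb complex PRC2, from 85.7 to 60.8–64.4. TET3, which oxidises methylcytosine, fell from 84.04 to 48.9–57.7 CPM and the acetyltransferase CREBBP from 131 to 89.4–98.9.

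Fold changes also moved with the length of the mRNA, and these lists differ in length. Protein-coding genes whose mean log2 CPM was 1 or more were put into 5 groups by exon length. Their median log2 fold change was 0.15 in the shortest group (359 to 2101 bases), 0.06, -0.02 and -0.07 in the next 3, and -0.10 in the longest (6340 to 35303 bases). Each of the 5 withdrawn libraries gave this order. Genes of like length had a median of 0.15 for the ribosomal and the oxidative phosphorylation lists and of -0.10 for the chromatin regulators, in the same direction as the lists and smaller. For the lysosomal list it was 0.06 and for S phase -0.02. All of these ratios share the 1 parental library, and the part of length in the list results was not tested.

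**Figure D4:**
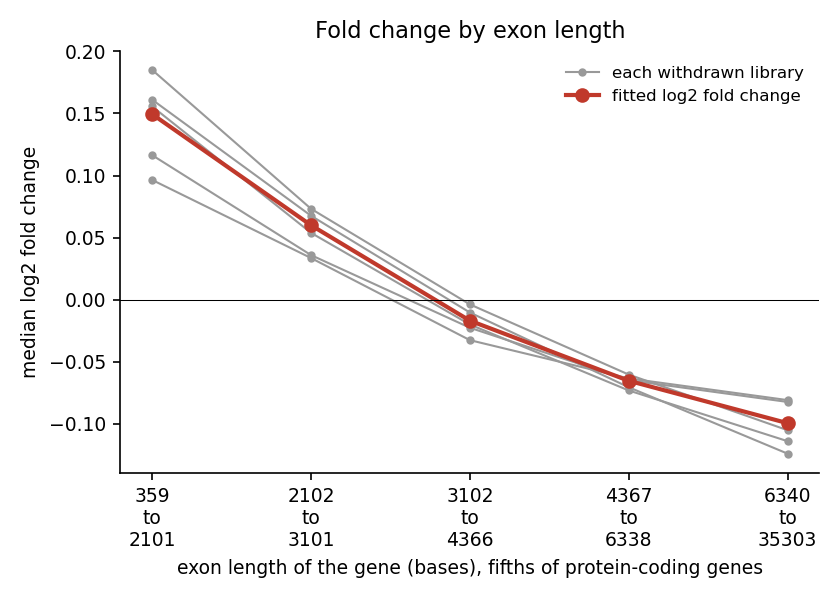
Median log2 fold change of withdrawn over parental cells for protein-coding genes in 5 groups by exon length in bases (x axis); grey lines are the 5 withdrawn libraries on the log2(CPM + 0.5) scale and the red line is the fitted value. Every line falls from the shortest to the longest group, the red one from 0.15 to -0.10.

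Matrix, adhesion and guidance genes moved in both directions. Of 51 matrix genes, 14 rose (27.5%, against 16.1% of all genes) and 3 fell (5.88%, against 14.4%), with a median of 0.35. The number that fell was 5 in DESeq2 and 7 in the fit that was not robust. SPARC, a matricellular protein, rose from 1928 to 3874, 3429.9, 3499, 4140.1 and 3661 CPM (log2 fold change 0.95 ± 0.10, adjusted p = 6e-05). FBLN5, of elastic fibres, rose from 2.95 to 9.26–12.1 CPM, the protease inhibitor TIMP1 from 221 to 303–331 and the gelatinase MMP2 from 101 to 174–221. COL6A3, a chain of collagen VI, fell from 7.82 to 3.71, 2.05, 2.50, 2.58 and 2.21 CPM. Of 17 integrin genes, 5 rose (29.4%) and 2 fell (11.8%, median 0.14), with ITGA1 from 196 up to 300.02–364 CPM and ITGA6 from 577 down to 383–441. PCDH9, a protocadherin, fell from 38.9 to 13.01, 15.5, 12.04, 16.9 and 17.1 CPM and CDH18, a cadherin, rose from 0.564 to 1.71–3.27 CPM, both in both fits. CDH2, which is N-cadherin, fell 1.29-fold.

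Of 31 axon guidance genes, 10 rose (32.3%, against 16.1% of all genes) and 2 fell (6.45%, against 14.4%), with a median of 0.12. Beside SEMA5A, the ephrin EFNA1 rose from 14.1 to 31.9, 30.2, 32.2, 30.8 and 32.4 CPM (adjusted p = 5.94e-06), the semaphorin SEMA3A from 30.1 to 48.02–63.8 CPM, and the semaphorin receptor NRP2 from 235 to 288–348 CPM. The receptor PLXNA1 fell from 79.3 to 46.5–50.9 CPM. FAP, a surface protease that activated fibroblasts also make, rose from 0.925 to 16.8, 10.6, 13.1, 24.01 and 13.6 CPM and passed in both fits (adjusted p = 0.0126 and 0.0393). PDGFRB rose from 11.2 to 17.3–22.9 CPM and ACTA2, with 38.3% of its exon bases opposite another gene, from 1.49 to 4.31–7.52 CPM. These 3 were the members of 10 tested fibroblast markers that rose, and none fell. The defining collagen COL1A1 stood at 1.33 CPM in parental and 0.791 to 1.79 in withdrawn cells, and COL1A2 at 0.047 and 0.0356 to 0.12 CPM. The part of such cells in the matrix results was not tested.

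Genes that rose at least 4-fold lay densely in the first 16 Mb of chromosome 18, a region chosen after the values were seen. There, 18 of 116 tested genes rose at least 4-fold (15.5%, against 1.84% of all genes), and 1 of 231 did on the rest of the chromosome. Of these 18, 17 had under 1 CPM in parental cells, as did 63 of all 116. The 40 genes of the region with at least 10 CPM in parental cells had a median log2 fold change of 0.008. The protein-coding members were MYOM1, EPB41L3, L3MBTL4, ARHGAP28, LAMA1, PTPRM, POTEC and ANKRD30B. PTPRM, a receptor tyrosine phosphatase and the most abundant of them in parental cells, rose from 16.3 to 77.9, 63.01, 78.4, 89.7 and 70.97 CPM (log2 fold change 2.22 ± 0.21) and passed in both fits. L3MBTL4, a chromatin reader, had 1 parental count and 1.95, 2.30, 2.27, 3.12 and 1.91 CPM in withdrawn cells, a ratio of 148 (95% counting interval 26.4 to 5836). LAMA1, a laminin chain, rose from 0.611 to 4.32–11.6 CPM and ANKRD30B from 0.298 to 5.65–8.06. LAMA1 missed the threshold without withdrawn replicate 2 or 4 (adjusted p = 0.053 and 0.0747). Near the end of the region, POTEC, the pseudogene CXADRP3 and the transcript AP005242.3 had 0 counts in parental cells. The last 2 stood at 2.42 to 4.19 and 2.95 to 4.63 CPM in withdrawn cells and at 0 to 0.749 and 0.108 to 0.347 in persister cells. EPB41L3, PTPRM and LAMA1 were also expressed in persister cells, at 34.2 to 93.4, 56.8 to 104 and 7.96 to 55.6 CPM. Other chromosomes also held dense stretches. In runs of 100 consecutive tested genes, 10 rose at least 4-fold on chromosome 21 (5 to 30.4 Mb) and 9 on chromosome 16 (30.9 to 48.4 Mb). The runs of chromosome 18 from 0 to 14.4 and from 14.4 to 40.1 Mb held 7 and 12, and the median run held 1. Copy number was not measured in these data.

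**Figure D5:**
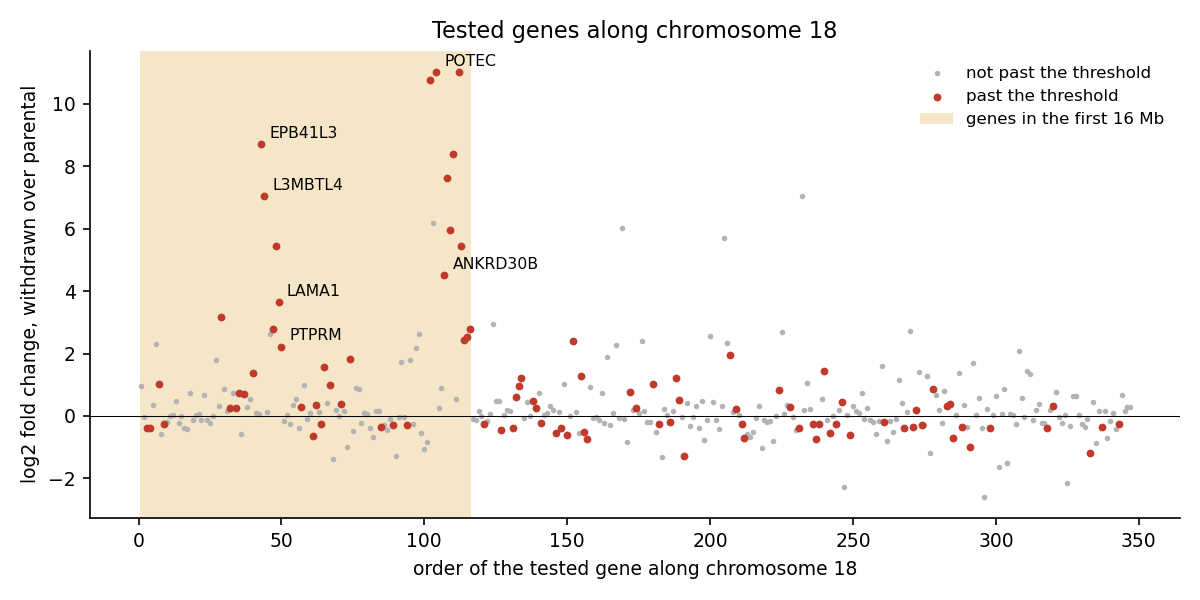
Log2 fold change of withdrawn over parental cells (y axis) for the tested genes of chromosome 18 in their order along it (x axis); red points passed the threshold and the shaded part holds the genes of the first 16 Mb. The tallest red points, among them EPB41L3, L3MBTL4 and POTEC, lie in the shaded part, amid grey points near 0.

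Many zinc finger genes were lower, above all in 1 window of chromosome 19. KRAB zinc finger genes, many of which silence retroelements, stand in clusters there. Of the 36 ZNF genes tested between 19 and 24 Mb, a window chosen after the values were seen, 0 rose and 24 fell (66.7%, against 14.4% of all genes), with a median log2 fold change of -0.59. On the rest of chromosome 19, 46 of 207 ZNF genes fell (22.2%, median -0.19), and on other chromosomes 59 of 244 (24.2%, median -0.11). The share was thus no higher on chromosome 19 outside the window than on other chromosomes. Of all protein-coding genes, 18.8% fell. ZNF43 fell from 52.3 to 30.5, 34.6, 30.5, 32.1 and 31.6 CPM (log2 fold change -0.72 ± 0.08, adjusted p = 5.33e-05) and ZNF100 from 31.1 to 17.1–19.9 CPM. ZNF492 fell from 15.3 to 4.52–8.10 CPM, and ZNF728 fell from 2.10 to 0.351–0.494 CPM and passed in both fits. Reads of these genes are alike, so values of single members are uncertain.

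Along all chromosomes, the 428 runs of 50 tested genes had medians from -0.64 to 0.64, with 5% of them under -0.16 and 5% over 0.25. The lowest run of 50 was the zinc finger cluster of chromosome 19 (19.7 to 22.7 Mb, 25 of 50 genes lower). With runs of 100 genes the lowest lay elsewhere, on chromosome 4. The highest lay on chromosome 6 from 27.8 to 29.9 Mb, where 9 of 50 genes rose and 0 fell. The share that rose was near the 16.1% of all genes, so most of this run did not pass the threshold. A run from 32.2 to 33.3 Mb of chromosome 6, which holds the MHC class II genes, had 26 of 50 genes higher and 5 lower (median 0.40).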

How the data were processed

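Poly(A) RNA of A375 cells was sequenced from stranded libraries, and the authors deposited whole-number read counts per gene; the submitters' processing notes name bcl2fastq, HISAT2, HTSeq and the build hg38, while their versions, the strand setting and the gene models counted are not given in the sources at hand. The table has 58721 genes and no unassigned rows, and 18024 genes were 0 in all 11 libraries. Counts of near-identical copies and of genes on opposite strands are uncertain.

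Withdrawn replicates 1 to 5 were compared with the parental library in edgeR 4.0.16 (R 4.3.3): TMM scaling was followed by a robust quasi-likelihood fit of the genes that filterByExpr kept (count of at least 10, total of at least 15) and by Benjamini-Hochberg adjustment. Total counts were 56765452 to 70729728, and TMM factors 0.989 to 1.01. The 4 residual degrees of freedom come from the withdrawn libraries. DESeq2 1.42.0 and limma-voom (limma 3.58.1) were alternatives, as were other scalings, filters, each withdrawn library left out, and a fit of all 11 libraries (8 residual degrees of freedom). The code was checked on simulated data.

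Members and gene lists were chosen with earlier results of these data known. Named genes are those of interest to the study, the 3 most significant called members of each list and the 12 largest rises and falls. These rises and falls came from called protein-coding genes with mean log2 CPM of 1 or more and a parental value outside the withdrawn range. The 5 protein-coding genes with the most counts facing 0 were also taken. Further genes were picked after their values were seen. Where 5 values are given for a group, they are replicates 1 to 5 in order. Gene positions and exon lengths come from GENCODE 29 (GRCh38), and promoter windows from RefSeq (GRCh38.p14), the first listed per symbol.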

Additional observations from a re-analysis of the deposited data

Results flagged for a closer look

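In each gene named in the text, the highest and the lowest withdrawn library were compared with the others (Dixon's test, critical value 0.71 for 5 samples). Of 209 genes, 11 had a library that stood apart, and chance alone marks about 1 group in 20. These were 4 values of withdrawn replicate 3, 4 of replicate 4, 2 of replicate 2 and 1 of replicate 1.

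In withdrawn replicate 3, PLXDC2 stood at 16.4 CPM against 4.15 to 7.54 in the other 4, KRT14 at 2.27 CPM against 1.04 to 1.34, HMGCS1 at 34.7 CPM against 31.0 to 32.0, and CDK8 was low, at 28.7 CPM against 32.4 to 33.4. In withdrawn replicate 4, BCL2A1 stood at 16.4 CPM against 8.31 to 10.1, CA8 at 9.19 CPM against 3.01 to 4.50, MYO5A at 138 CPM against 116 to 119.9, and HK2, a hexokinase of glycolysis, at 153 CPM against 143 to 145. In withdrawn replicate 2, MGAM2 stood at 16.8 CPM against 11.4 to 12.7 and DNAJA1 at 263 CPM against 239 to 244. In withdrawn replicate 1, DNAH6 was low, at 8.44 CPM against 14.5 to 16.8. Each of these values lay on the same side of the parental value as those of the other 4 withdrawn libraries.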

How the results depend on the processing

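The fit of all 11 libraries changed the count of genes past the threshold from 6593 to 102 (74 higher and 28 lower). At an unadjusted p below 0.05 the counts were 8877 and 3609. The other settings gave 6310 (limma-voom) to 7245 genes (no filter, of 36988 tested), among them 6606 in DESeq2, and 5653 to 7158 when each withdrawn replicate was left out. Limma-voom called 2954 genes higher and 3356 lower, so the larger side differs from edgeR's, in which 52.8% of called genes were higher. Scaling moved the median log2 fold change of all genes only from 0.025 (TMM) to 0.019 (size factors) and 0.013 (library size alone). With runs of 100 genes the lowest and highest medians were -0.305 and 0.354. The lowest then lay on chromosome 4 (65.3 to 86 Mb), and the run of chromosome 19 from 18.2 to 22.7 Mb had -0.189. The highest stayed on chromosome 6 (27.8 to 31.4 Mb). List counts that moved by over 1.5 times when a replicate was left out stand beside each list. Among other settings, the count that fell moved from 3 to 5 for pathway output and from 5 to 8 for glycolysis in DESeq2, from 3 to 5 (DESeq2) and 7 (not robust) for matrix genes, from 2 to 1 for pigmentation and from 1 to 2 for AP-1 (not robust), from 2 to 4 for axon guidance and from 3 to 1 for interferon-stimulated genes (no filter), from 2 to 1 for histones (DESeq2, no filter) and from 1 to 0 for HOX genes (not robust, no filter). Without a filter 2 S phase genes rose, against 0. No called gene named in the text changed sign. Of named genes short of the threshold, CDKN1A, DCT, MITF, MME and TRPC4 passed in DESeq2. DCT, MITF, MME and NGFR passed in the fit that was not robust, and CDKN1A passed without a filter. Of 189 named genes past the threshold, 157 missed it in the fit of 11 libraries and 33 in some other setting, limma-voom or a left-out replicate in most. In limma-voom AKR1C1, BCL2A1, CTAG1B, EGLN3, FAP, LAMA1, MAGEC1, MYOM1, NAV3, PRLR and SERTM2 were among them (adjusted p = 0.06 to 0.163), and without a filter SLC7A5 was (0.0611). No paired analysis was possible because there is 1 parental library, and it carries no number that pairs it with a withdrawn library. The spread of parental cultures was not measured, and genes with few parental counts carry wide counting intervals.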

Other observations

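Further gene groups outside the comparisons above were counted, to be read against the 19.4% of protein-coding genes that were higher and the 18.8% that were lower. Of 33 HOX genes tested, which pattern the body axis, 11 rose and 1 fell, against 16.1% and 14.4% of all genes. Members that rose came from all 4 clusters, with HOXD8 at a log2 fold change of 0.81, HOXB13 at 0.71, HOXB9 at 0.66, HOXC10 at 0.54 and HOXA5 at 0.38. HOXA3, the member past the threshold as lower, had a log2 fold change of -0.30 (adjusted p = 0.0473) and missed it without withdrawn replicate 1, 2, 3 or 4 (adjusted p = 0.0505 to 0.0832). Of 25 hypoxia targets, 8 rose (32%) and 3 fell (12%). CA9, a carbonic anhydrase, and EGLN3, an oxygen-sensing hydroxylase, had log2 fold changes of 2.37 and 2.31, and the glucose transporter SLC2A1 one of -0.57. Of 26 glycolysis genes, 5 rose, SLC2A3 (0.58) and ALDOC (0.67) among them, and 5 fell, HK2 (-0.37) and PKM (-0.31) among them. Each share was 19.2%, near that of protein-coding genes. Without withdrawn replicate 2, 8 glycolysis genes fell.

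Of 34 genes of TGF-beta and activin signalling, 10 rose (29.4%) and 5 fell (14.7%), or 3 without withdrawn replicate 3. Of 34 WNT pathway genes, 5 rose (14.7%) and 7 fell (20.6%), near the shares of protein-coding genes. Of 29 YAP and TEAD targets, 3 rose (10.3%) and 4 fell (13.8%), or 8 without withdrawn replicate 3. Of 17 AP-1 subunits 3 rose (17.6%), FOSL2 (1.03) among them, and 1 fell (5.88%). Of 31 cancer-testis antigens, which melanomas often express, 7 rose (22.6%) and 3 fell (9.68%). MAGEC1 and CTAG1B had log2 fold changes of 2.19 and 0.92, and GAGE1 one of -1.60, with near-identical copies that may share reads. CTAG1B missed the threshold without withdrawn replicate 2 or 4 (adjusted p = 0.0806 and 0.0508) and GAGE1 without replicate 2 or 3 (0.0638 and 0.0709). None of these lists had a member past the threshold when the persister libraries were in the fit.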
